A study of Homo sapiens with 8 samples.

Results

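Kinesins are the motor proteins that walk along, or take apart, microtubules, and this account covers the 42 of 26475 gene symbols in the deposited count table that carry a kinesin name (KIF or KIFC, a number and at most 1 letter from A to C). They were taken by name alone and placed in 3 lists by their known roles: 14 mitotic kinesins, 17 interphase transport kinesins and 11 of cilia, centrioles or other roles. The lists were drawn up with earlier results of these data known. KIF2A, which acts in both dividing and resting cells, was placed in the last list. Expression was measured by RNA sequencing in BT474, a long-established line of human breast carcinoma cells in which ERBB2 is amplified. All 8 libraries come from this line, 4 labelled NPY1R high and 4 NPY1R low, with no drug treatment and no engineered allele named. NPY1R encodes the neuropeptide Y receptor Y1, and the labels, which file high and low under genotype, do not say how the cells were separated or whether the replicates are separate cultures, so the p-values measure only the spread between these libraries. The series as a whole concerns persistence of such cells under lapatinib, which blocks the kinases EGFR and ERBB2.

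In a dividing cell, mitotic kinesins push spindle poles apart, move and align chromosomes, trim microtubule ends and build the midzone at which the daughter cells separate. Their genes are transcribed mainly in the G2 and M phases and their products are largely removed after division, so in a culture of growing tumour cells their RNA follows the dividing cells. Transport kinesins work throughout the cell cycle and carry vesicles, mitochondria, lysosomes and endosomes outward along microtubules, helped by light chains and adaptors. A further set moves within cilia or acts at centrioles.

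Library totals ran from 18025648 to 30609791 estimated counts. NPY1R itself had 699, 728, 1049 and 950.2 CPM in the NPY1R high libraries and 90.8, 94.9, 92.8 and 104 CPM in the NPY1R low libraries (CPM, counts per 1000000 on scaled library sizes), with no overlap. All 7 luminal epithelial markers were expressed, while COL1A2, PDGFRB, DCN and CD3E had 0 counts in every library. PTPRC reached at most 0.0551 CPM, CD14 at most 0.0458 CPM and PECAM1 at most 0.140 CPM. The endothelial marker CDH5, with 71 counts in all, was not tested. It ranged from 0 to 0.344 CPM in NPY1R high and from 0.275 to 0.705 CPM in NPY1R low, with overlap. COL1A1 (10.4 to 17.5 CPM) and VWF (8.999 to 17.8 CPM) were detected in every library. Among the luminal markers, GATA3 was higher in NPY1R high by 0.60 on the log2 scale, and EPCAM and FOXA1 were lower with changes of -0.30 and -0.23 (edgeR's quasi-likelihood test, adjusted p 0.00616, 0.00436 and 0.00891).

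Most mitotic kinesins were lower in NPY1R high cells. Of 13 tested, 10 were lower at an adjusted p under 0.05 and 0 were higher (edgeR's quasi-likelihood test, Benjamini-Hochberg over all 14008 tested genes), against 7.81% of all tested genes lower and 5.78% higher. The median log2 change of the 13 was -0.66, beside -0.03 over all tested genes, and all 13 had a negative value. Of the 15 tested transport kinesins, 5 were lower and 1 was higher, with a median of -0.16. Those lower numbered 3 under each of the 4 other scalings, which lost KIF3B and KIF5B, and 3 to 4 without 1 library. None of the 7 tested kinesins of cilia, centrioles or other roles passed, with 0 of 7 called by edgeR, 2 of 7 at an unadjusted p under 0.05 (KIF7 and KIF24), 1 called by DESeq2 (KIF7) and 0 by limma-voom, and their median was -0.11. In this fit 42.5% of all calls were higher in NPY1R high, whereas upper-quartile scaling gave 56.3%, and the mitotic count was 10 under each of the 4 other scalings. Fewer dividing cells and less of these RNAs per dividing cell cannot be told apart in bulk libraries.

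**Figure D1:**
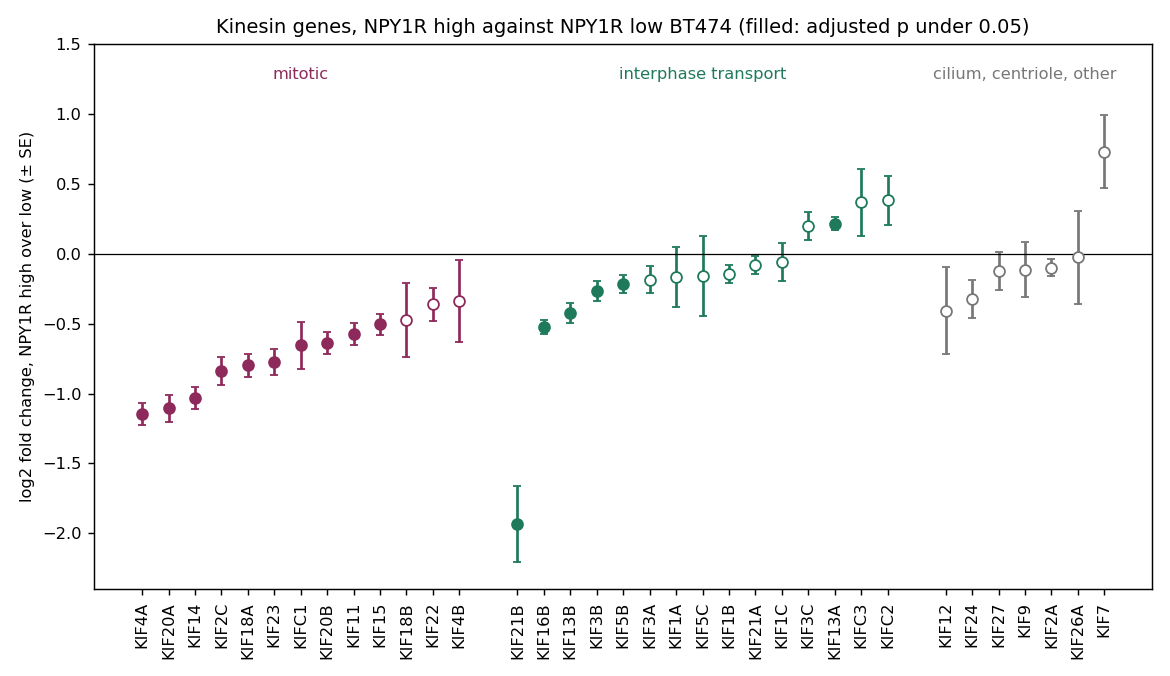
Log2 fold change (NPY1R high over low, bars ± SE) of the 35 tested kinesin genes, in 3 lists by role and ordered by size within each, with filled points at an adjusted p under 0.05. All 13 mitotic kinesins lie below 0 and 10 are filled. Among the transport kinesins KIF21B lies lowest at -1.93 and only KIF13A is filled above 0.

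The 3 largest changes among the tested mitotic kinesins were in KIF4A, KIF20A and KIF14, motors of the anaphase midzone and cleavage. Other motors with such roles, KIF23 and KIF20B, had smaller estimates than KIF2C and KIF18A, which act at kinetochores and their microtubules. The kinetochore kinesin CENPE, which is outside this list, changed by -1.02. KIF4A (chrX:70290104-70420886), a chromosome-bound motor that also sets the length of midzone microtubules, had 41.1, 38.4, 32.9 and 33.8 CPM in the NPY1R high libraries and 81.004, 77.6, 78.9 and 86.6 CPM in the NPY1R low libraries. Its lowest NPY1R low value was well above its highest NPY1R high value. KIF20A (chr5:138179112-138187723), which brings the chromosomal passenger complex to the midzone, had 71.8, 62.6, 56.1 and 50.7 CPM in the NPY1R high libraries and 138, 128, 127 and 126 CPM in the NPY1R low libraries. KIF14 (chr1:200551497-200620751), which works with citron kinase at the midbody, had 32.2, 33.8, 27.4 and 28.1 CPM in the NPY1R high libraries and 61.3, 59.1, 64.7 and 63.1 CPM in the NPY1R low libraries. None of these 3 overlapped between the groups, as for 11.4% of all tested genes in this direction. Their log2 changes were -1.15 (SE 0.08), -1.11 (SE 0.10) and -1.03 (SE 0.08), that is 2.21-fold, 2.15-fold and 2.04-fold higher in NPY1R low, with edgeR adjusted p of 1.78e-05, 6.52e-05 and 2.85e-05.

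KIF23 (chr15:69414349-69448427), the motor subunit of centralspindlin, which bundles midzone microtubules, had 57.2, 52.2, 46.6 and 41.6 CPM in the NPY1R high libraries and 84.997, 82.3, 84.5 and 86.8 CPM in the NPY1R low libraries. KIF20B (chr10:89701590-89774934), needed late in cytokinesis, had 62.4, 64.9, 55.5 and 51.3 CPM in the NPY1R high libraries and 89.7, 88.3, 94.4 and 92.7 CPM in the NPY1R low libraries. Both genes separated the groups fully. The log2 change was -0.77 (SE 0.09) for KIF23 and -0.64 (SE 0.08) for KIF20B (edgeR adjusted p 0.000351 and 0.000418).

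KIF2C and KIF18A, which act at kinetochores and on their microtubules, were lower, while KIF22 and KIF18B did not pass. KIF2C (chr1:44739837-44767767), the depolymerase MCAK that corrects wrong attachments at kinetochores, had 52.9, 45.4, 40.1 and 37.99 CPM in the NPY1R high libraries and 85.8, 78.2, 76.1 and 75.9 CPM in the NPY1R low libraries. KIF18A (chr11:28020619-28108156), which damps chromosome movement at the metaphase plate, had 38.1, 34.4, 30.4 and 29.9 CPM in the NPY1R high libraries and 58.96, 59.1, 56.9 and 56.2 CPM in the NPY1R low libraries. In both genes every NPY1R high library was under every NPY1R low library. Their log2 changes were -0.84 (SE 0.10) and -0.80 (SE 0.08) (edgeR adjusted p 0.000433 and 0.000184). KIF22 (chr16:29790751-29805385), the chromokinesin Kid that pushes chromosome arms to the plate, had 67.8, 62.1, 52.2 and 52.7 CPM in the NPY1R high libraries and 82.7, 84.4, 72.7 and 62.02 CPM in the NPY1R low libraries. Its ranges overlapped, NPY1R high replicate 1 lying above NPY1R low replicate 4, and its log2 change of -0.36 (SE 0.12) did not pass (edgeR adjusted p 0.0711). KIF18B (chr17:44924711-44947773), which limits the growth of astral microtubules, had 16.6, 11.9, 6.95 and 9.91 CPM in the NPY1R high libraries and 19.5, 18.1, 15.4 and 10.2 CPM in the NPY1R low libraries. The ranges overlapped widely, and the log2 change of -0.47 (SE 0.27) did not pass (edgeR adjusted p 0.309).

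All 3 motors that build the bipolar spindle were lower. KIF11 (chr10:92593130-92655395), the tetrameric motor Eg5 that slides the spindle poles apart, had 117, 108, 98.9 and 93.01 CPM in the NPY1R high libraries and 149, 146, 164 and 164 CPM in the NPY1R low libraries. KIF15 (chr3:44761794-44868687), which shares that task, had 31.6, 32.4, 29.3 and 28.03 CPM in the NPY1R high libraries and 39.8, 41.5, 43.9 and 47.1 CPM in the NPY1R low libraries. The groups did not overlap for either gene, with log2 changes of -0.58 (SE 0.08) and -0.51 (SE 0.08) (edgeR adjusted p 0.000914 and 0.00183). KIFC1 (chr6:33391461-33409896), the minus-end motor HSET that focuses spindle poles and clusters extra centrosomes in tumour cells, had 38.4, 32.6, 22.5 and 25.2 CPM in the NPY1R high libraries and 51.3, 53.1, 45.7 and 37.4 CPM in the NPY1R low libraries. NPY1R high replicate 1 lay above NPY1R low replicate 4, so the ranges overlapped. KIFC1 changed by -0.66 (SE 0.17) (edgeR adjusted p 0.0296), and this call was lost in 6 of 8 repeats without 1 library. In those repeats its edgeR adjusted p was 0.0541, 0.0678 and 0.1095 without NPY1R high replicates 2, 3 and 4, and 0.0846, 0.0745 and 0.0688 without NPY1R low replicates 1, 2 and 3. KIF4B is an intronless copy of KIF4A, so reads may be split between them, and its log2 change of -0.34 (SE 0.29), with 0.625 ± 0.181 CPM in NPY1R low and 0.506 ± 0.123 in NPY1R high (SD, n = 4 each), is uncertain. KIF2B had 20 counts over the 8 libraries and was not tested.

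**Figure D2:**
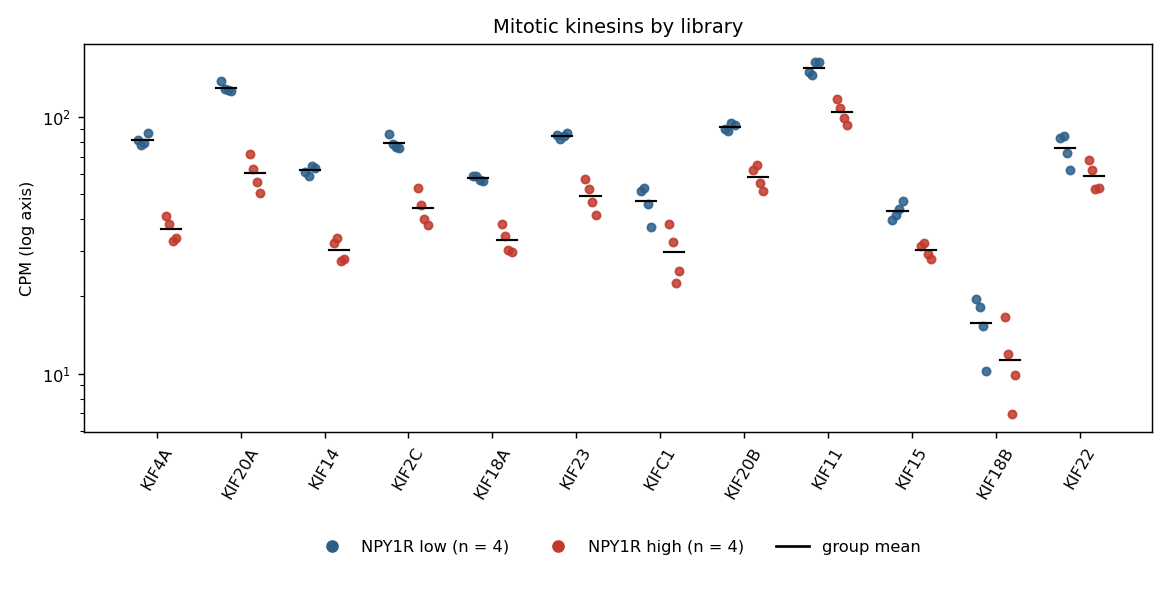
CPM (log axis) of 12 mitotic kinesins in each library, NPY1R low in blue and NPY1R high in red, with black lines at the group means (n = 4 each). The groups are apart for 9 genes, each lower in NPY1R high, as for 11.4% of all tested genes. They overlap for KIFC1, KIF18B and KIF22.

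Promoter sequence was set beside these levels because genes of the G2 and M phases often carry, near the start site, a cell cycle homology region (CHR), read by the MuvB complexes, and a CCAAT box, read by NF-Y. The CHR was searched as TTTGAA on the strand of the gene and as its reverse complement, TTCAAA, which stands for the other strand. A further form, the palindrome spelled TTCGAA, was counted as a CHR as well. The CCAAT box was searched as CCAAT and, for the opposite strand, its reverse complement, ATTGG. In the kinesin windows no match of one motif overlaps a match of the other. RefSeq promoter windows (GRCh38.p14) matched all 14 mitotic kinesins with 15 windows, of which 12 held a CHR match, 11 (73.3%) a CCAAT match and 10 (66.7%) both. The 2 windows of KIF22 overlap and hold the same CHR match. Of 35116 windows of all genes, 16.4% held a CHR match, 34.6% a CCAAT match and 6.38% both. A motif of the E2F factors was searched as well. It matched 1 of the 15 mitotic windows (6.67%), 0 of the transport windows and 3.31% of all windows. For 12 of the 17 transport kinesins, 17 windows were matched, with a CHR match in 1 (KIF5B) and a CCAAT match in 5. The 11 windows of 8 other kinesins held 1 CHR match (KIF24) and 4 CCAAT matches. The lists are defined by function, so the shares describe them and carry no test.

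The 80 bases before the start site (RefSeq, GRCh38.p14) are shown for 5 mitotic kinesins with both motifs in that stretch, then for KIF2C, which fell but has no match, and for the transport kinesins KIF5B and KIF16B. Sequences run 5′ to 3′ on the gene's strand, with CHR and CCAAT matches in capitals.
KIF4A, chrX:70290024-70290103 (plus strand): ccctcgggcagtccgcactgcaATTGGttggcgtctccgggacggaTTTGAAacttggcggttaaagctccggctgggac
KIF11, chr10:92593050-92593129 (plus strand): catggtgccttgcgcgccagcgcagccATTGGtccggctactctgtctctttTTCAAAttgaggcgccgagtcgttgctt
KIF18A, chr11:28108157-28108236 (minus strand): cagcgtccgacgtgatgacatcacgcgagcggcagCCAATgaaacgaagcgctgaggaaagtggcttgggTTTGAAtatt
KIF23, chr15:69414269-69414348 (plus strand): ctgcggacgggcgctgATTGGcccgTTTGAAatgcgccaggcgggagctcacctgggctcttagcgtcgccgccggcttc
KIF22, chr16:29790671-29790750 (plus strand): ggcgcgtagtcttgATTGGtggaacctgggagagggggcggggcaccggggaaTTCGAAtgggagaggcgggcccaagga
KIF2C, chr1:44739757-44739836 (plus strand): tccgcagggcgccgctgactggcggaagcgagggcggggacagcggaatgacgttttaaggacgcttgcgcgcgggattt
KIF5B, chr10:32056426-32056505 (minus strand): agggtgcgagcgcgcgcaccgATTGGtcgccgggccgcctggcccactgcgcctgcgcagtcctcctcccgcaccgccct
KIF16B, chr20:16573449-16573528 (minus strand): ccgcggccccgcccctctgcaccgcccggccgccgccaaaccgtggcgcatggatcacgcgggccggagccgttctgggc
Counting the base before the start as -1, the CHR match begins at -34 in KIF4A, -28 in KIF11, -10 in KIF18A, -55 in KIF23 and -27 in KIF22, downstream of the CCAAT match at -58, -53, -45, -64 and -66. The only CHR match of KIF5B lies further upstream, outside the printed stretch. In KIF14, KIF18B, KIF4B and KIFC1 the CHR match begins within the first 5 bases of the transcript. Among genes lower in NPY1R high, 18.1% of 1270 windows held a CHR match, beside 13.3% of 1000 windows of genes higher and 11.1% of 12709 windows of tested genes not called. A match is a description of the letters and not evidence of binding.

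Among the transport kinesins, the largest change was in a low-abundance gene. KIF21B (chr1:200969390-201023714), a motor known from dendrites and T cells that curbs microtubule growth, had 0.584, 0.632, 0.362 and 1.05 CPM in the NPY1R high libraries and 2.15, 2.42, 2.43 and 2.75 CPM in the NPY1R low libraries. The groups were apart, but the counts behind these values were 17, 17, 10 and 19 in NPY1R high and 64, 69, 53 and 70 in NPY1R low. KIF21B fell by 1.93 (SE 0.27) on the log2 scale (edgeR adjusted p 0.00103). Its close relative KIF21A (chr12:39293228-39443120) was far more abundant, at 87.5, 87.8, 84.7 and 74.8 CPM in the NPY1R high libraries and 89.997, 84.5, 88.4 and 91.05 CPM in the NPY1R low libraries, with overlapping ranges and a log2 change of -0.08 (SE 0.06) (edgeR adjusted p 0.49).

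Vesicle and endosome motors of the kinesin-3 family went in opposite directions. KIF16B (chr20:16272104-16573448), which moves early endosomes through its lipid-binding PX domain, had 89.9, 91.6, 96.2 and 91.6 CPM in the NPY1R high libraries and 129.9, 127, 136 and 139 CPM in the NPY1R low libraries. KIF13B (chr8:29067278-29263388), a vesicle motor that binds the scaffold DLG1, had 56.5, 58.3, 48.4 and 54.1 CPM in the NPY1R high libraries and 74.4, 77.6, 68.2 and 71.1 CPM in the NPY1R low libraries. KIF13A (chr6:17759126-17987635), which carries recycling endosomes and also the midbody protein FYVE-CENT, had 122, 122, 120.3 and 120.0 CPM in the NPY1R high libraries and 102, 101, 108 and 106 CPM in the NPY1R low libraries. In each of the 3 genes the groups were apart, KIF13A being the only tested kinesin whose NPY1R high values all lay above the NPY1R low values, as for 8.77% of all tested genes. The log2 change was -0.53 (SE 0.05) for KIF16B, -0.42 (SE 0.07) for KIF13B and 0.22 (SE 0.05) for KIF13A, with edgeR adjusted p of 0.000104, 0.00341 and 0.0107. These 3 calls and that of KIF21B held, in the same direction, in all 21 alternative fits. The rise of KIF13A is small, at 1.16-fold, and rests on tight replicates: 121 ± 1.12 against 104 ± 3.41 CPM (SD, n = 4 each).

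The kinesin-3 motors KIF1A, KIF1B and KIF1C did not pass. KIF1A (chr2:240713767-240821403), known from axonal transport of synaptic vesicle precursors, was abundant in these breast cancer cells, with 440.1, 392.5, 238 and 401 CPM in the NPY1R high libraries and 474, 497, 406 and 275 CPM in the NPY1R low libraries. Both groups hold high and low libraries, and its log2 change was -0.17 (SE 0.21) (edgeR adjusted p 0.696). KIF1B, which carries mitochondria and synaptic vesicle precursors, had 136, 138, 121 and 139.8 CPM in the NPY1R high libraries and 138, 142, 156 and 155 CPM in the NPY1R low libraries. KIF1C, a fast vesicle motor of migrating cells, had 206, 205, 151 and 176 CPM in the NPY1R high libraries and 213, 227, 175 and 153 CPM in the NPY1R low libraries. The ranges of KIF1B and KIF1C overlapped, with log2 changes of -0.14 (SE 0.06) and -0.06 (SE 0.14) (edgeR adjusted p 0.191 and 0.855).

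Conventional kinesin differed little. KIF5B (chr10:32009015-32056425), the ubiquitous heavy chain that moves mitochondria and lysosomes, had 601, 601, 632 and 570.4 CPM in the NPY1R high libraries and 652, 669, 704 and 771 CPM in the NPY1R low libraries. The groups did not overlap, yet the highest NPY1R high value was close to the lowest NPY1R low value. Its log2 change was -0.22 (SE 0.06), 1.16-fold higher in NPY1R low, with an edgeR adjusted p of 0.0495 that sits at the threshold. This call was lost in 16 of 21 alternative fits, with all 4 other scalings and without any 1 of the 8 libraries among them, where its edgeR adjusted p was 0.0620 to 0.257. The neuronal heavy chain KIF5C was near 2.33 ± 0.485 CPM in NPY1R low and 2.08 ± 0.842 in NPY1R high (SD, n = 4 each), with an edgeR adjusted p of 0.803. KIF5A, the other neuronal heavy chain, had 2 counts in all.

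Kinesin-2 motors carry cargo in the cytoplasm and into cilia. KIF3B (chr20:32277651-32335011), which pairs with KIF3A, had 77.1, 81.7, 78.7 and 88.4 CPM in the NPY1R high libraries and 96.003, 87.98, 102 and 106 CPM in the NPY1R low libraries. NPY1R high replicate 4 and NPY1R low replicate 2 stood at nearly the same level, so the ranges met. KIF3B changed by -0.27 (SE 0.07) (edgeR adjusted p 0.0329), and the call was lost in 13 of 21 alternative fits, among them the 4 other scalings (edgeR adjusted p 0.0660 to 0.125) and all fits that left out a library except that without NPY1R low replicate 2 (up to 0.157). KIF3A had 15.4, 15.6, 17.3 and 17.5 CPM in the NPY1R high libraries and 16.4, 20.6, 17.9 and 19.8 CPM in the NPY1R low libraries, with a log2 change of -0.18 (SE 0.10) (edgeR adjusted p 0.274). KIF3C, an alternative partner of KIF3A, had 17.04 ± 2.01 CPM in NPY1R high and 14.8 ± 0.851 in NPY1R low (SD, n = 4 each), a positive value of 0.20 (SE 0.10) with an edgeR adjusted p of 0.265. KIF17, a motor of cilia and dendrites, had 4 counts in all.

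The minus-end transport kinesins had positive values that did not pass, although KIFC2 was called higher in 3 of 21 alternative fits, those that removed each library's trend on GC content (edgeR adjusted p 0.0083, 0.00172 with a replicate block as well and 0.000188 with a replicate-subset term as well). KIFC2 (chr8:144466049-144474202), known from dendritic transport, had 59.3, 43.9, 43.7 and 50.8 CPM in the NPY1R high libraries and 41.9, 45.4, 39.4 and 24.98 CPM in the NPY1R low libraries, with NPY1R low replicate 4 the lowest of all, and a log2 change of 0.38 (SE 0.17) (edgeR adjusted p 0.199). KIFC3 (chr16:57758217-57862858), a motor at epithelial adherens junctions and the Golgi, had 3.23, 3.01, 2.03 and 2.97 CPM in the NPY1R high libraries and 1.95, 3.05, 2.24 and 1.45 CPM in the NPY1R low libraries. Its ranges overlapped, with a log2 change of 0.37 (SE 0.24) (edgeR adjusted p 0.395).

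**Figure D3:**
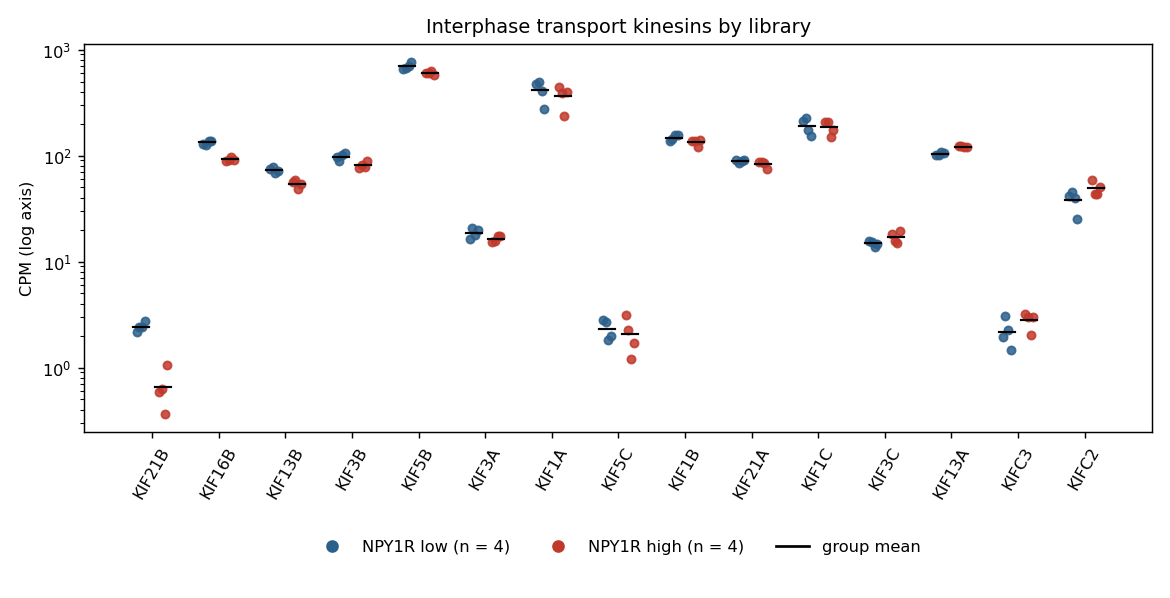
CPM (log axis) of the 15 tested transport kinesins in each library, NPY1R low in blue and NPY1R high in red, with black lines at the group means (n = 4 each). KIF21B, KIF16B, KIF13B, KIF5B and KIF13A show no overlap between the groups, and KIF1A spreads from 238 to 497 CPM across replicates.

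Mitotic kinesins were also set against other members of their families, where 2 motors share a fold. The partners were chosen with earlier results known. KIF2C, KIF4A and KIF14 each separated the groups on their own in these libraries, and KIF2A, KIF21A and KIF1B were not called. The permutation p-values of these pairs therefore add no support beyond the single-gene calls. Within each library the log2 CPM of a family member outside the mitotic list was subtracted from that of the mitotic member. Of the 4 such pairs compared, that of KIF2A holds a motor that also acts in dividing cells. In the kinesin-13 family of depolymerases, KIF2C minus KIF2A was -0.33, -0.58, -0.84 and -0.85 in the NPY1R high libraries and 0.13, 0.17, 0.15 and -0.04 in the NPY1R low libraries. KIF2A, which acts at spindle poles but also prunes neurites and shortens cilia, had 66.5, 68.2, 71.9 and 68.8 CPM in the NPY1R high libraries and 78.5, 69.7, 68.6 and 78.1 CPM in the NPY1R low libraries, a log2 change of -0.10 (SE 0.06) (edgeR adjusted p 0.378). In the kinesin-4 family, KIF4A minus KIF21A was -1.09, -1.19, -1.36 and -1.14 in the NPY1R high libraries and -0.15, -0.12, -0.16 and -0.07 in the NPY1R low libraries. KIF4A stood slightly under KIF21A in CPM in NPY1R low, and KIF4A lay more than 1 log2 unit under KIF21A in every NPY1R high library.

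In the kinesin-3 family, KIF14 minus KIF1B was -2.08, -2.03, -2.14 and -2.31 in the NPY1R high libraries and -1.17, -1.26, -1.27 and -1.29 in the NPY1R low libraries. In the kinesin-14 family of minus-end motors, KIFC1 minus KIFC3 was 3.54, 3.41, 3.42 and 3.05 in the NPY1R high libraries and 4.67, 4.09, 4.30 and 4.61 in the NPY1R low libraries. KIFC1 alone overlapped between the groups, and KIFC3, at 37 to 94 counts per library, changed by 0.37 (edgeR adjusted p 0.395). No pair overlapped between the groups. The groups differed by -0.75 (SE 0.13), -1.07 (SE 0.06), -0.89 (SE 0.07) and -1.06 (SE 0.17) for the pairs in the order given. The exact two-sided permutation p was 0.0286 for each pair, also after Benjamini-Hochberg adjustment over the 4 pairs, the smallest that 4 against 4 libraries allow. Without NPY1R low replicate 1, 2 or 3 the adjusted exact permutation p of the KIF2C pair was 0.0571, and the other pairs stayed under the threshold in all 8 such repeats. The result depends on the partner in the kinesin-4 family. With KIF21B, which fell more than KIF4A did, KIF4A minus KIF21B was 5.96, 5.76, 6.23 and 4.91 in the NPY1R high libraries and 5.19, 4.96, 4.98 and 4.94 in the NPY1R low libraries, the opposite direction with overlapping ranges (difference 0.70, SE 0.29, exact permutation p 0.143). Of 10 other partners tried after seeing the data, the remaining 9 gave negative differences without overlap, from -1.95 (KIF4A minus KIF7) to -0.51 (KIF14 minus KIF16B). Each had the smallest exact permutation p that 4 against 4 libraries allow, 0.0308 when adjusted over all 14 pairs. All but KIFC1 minus KIFC2 reuse KIF2C, KIF4A or KIF14, which separated the groups alone. Those differences therefore add no support beyond the single-gene calls.

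**Figure D4:**
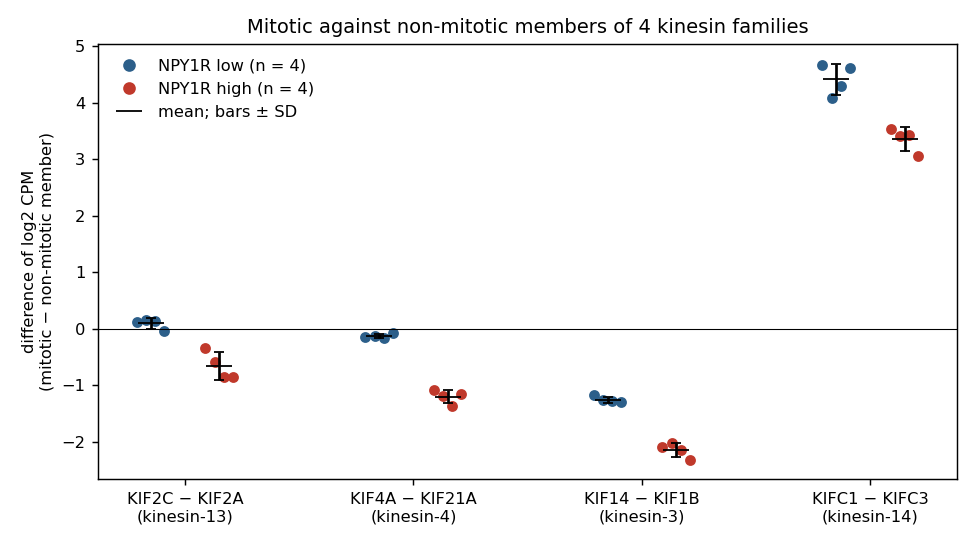
Difference of log2 CPM between the mitotic member and a member outside the mitotic list in 4 kinesin families, 1 point per library. NPY1R low is in blue and NPY1R high in red, with mean ± SD (n = 4 each). For each of these 4 pairs all NPY1R high points lie below all NPY1R low points, which does not hold when KIF21B replaces KIF21A.

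Summed over the 42 genes, mitotic kinesins held 23.7%, 22.7%, 22.2% and 20.1% of kinesin CPM in the NPY1R high libraries and 30.2%, 29.2%, 30.3% and 30.8% in the NPY1R low libraries. The shares did not overlap. Per kilobase of transcript, KIF5B stood highest of all kinesins in both groups (102 CPM per kilobase in NPY1R high and 119 in NPY1R low), and KIF1A was next in both (39.9 and 44.8). KIF20A had 40.6 CPM per kilobase in NPY1R low, close to KIF1A there, and 18.8 in NPY1R high, where KIF22 (23.4), KIF1C (23.3), KIF11 (21.5) and KIF2A (20.5) had higher means. Levels per kilobase used the longest coding transcript, which need not be the isoform expressed.

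The remaining kinesins of cilia, centrioles and other roles were low, apart from KIF2A and, at a middle level, KIF24. KIF7 (chr15:89617309-89663049), the ciliary regulator of Hedgehog signalling, had 5.05, 4.28, 3.73 and 4.46 CPM in the NPY1R high libraries and 2.82, 4.10, 1.88 and 1.69 CPM in the NPY1R low libraries. Its log2 change of 0.73 (SE 0.26) did not pass (edgeR adjusted p 0.103), although 6 of 21 alternative fits called it higher. KIF24, which acts at the mother centriole and restrains cilium formation, had 22.1, 22.8, 16.1 and 17.6 CPM in the NPY1R high libraries and 26.8, 26.1, 25.1 and 20.4 CPM in the NPY1R low libraries, with a log2 change of -0.32 (SE 0.13) (edgeR adjusted p 0.154). It was called lower in 3 of 21 alternative fits. KIF12, KIF26A, KIF27 and KIF9 had group means between 1.22 and 7.12 CPM, log2 changes from -0.41 to -0.03 and edgeR adjusted p from 0.482 to 0.977. KIF6, KIF26B, KIF25 and KIF19 had 27, 15, 1 and 0 counts over the 8 libraries and were not tested, where a count of 0 in a library allows up to 3 counts.

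Genes of the proteins that work with mitotic kinesins were lower as well. Of 20 listed partners 19 were lower and 0 higher (edgeR adjusted p under 0.05, where 7.81% of all tested genes were lower), with a median log2 change of -0.78. CENPE, the kinetochore kinesin whose symbol does not follow the naming pattern, had 74.1, 69.7, 60.5 and 52.9 CPM in the NPY1R high libraries and 134, 124, 127 and 135 CPM in the NPY1R low libraries, a log2 change of -1.02 (SE 0.10) (edgeR adjusted p 0.000103). CIT, the citron kinase bound by KIF14, had -1.04 (SE 0.13), BUB1, a spindle checkpoint kinase, -1.003 (SE 0.07), and PLK1, the polo-like kinase that docks on KIF20A, -0.98 (SE 0.16) on the log2 scale. MKI67, the proliferation marker Ki-67, changed by -0.98 (SE 0.11), so KIF4A, KIF20A and KIF14 had estimates of similar size to it. The partner that did not pass was NUMA1, a pole protein also present in resting nuclei, at -0.07 (SE 0.16) (edgeR adjusted p 0.848).

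The light chains and adaptors of transport kinesins showed few differences. Of 23 tested, 3 were lower and 1 higher, against 7.81% and 5.78% of all tested genes, with a median log2 change of -0.08. TRAK2 (217, 224, 224 and 214 CPM in NPY1R high and 163, 170.0, 154 and 166 in NPY1R low), which links KIF5 to mitochondria, rose by 0.43 (SE 0.05) with an edgeR adjusted p of 0.000303. Its relative TRAK1 changed by -0.27 (SE 0.08), MAPK8IP1 (JIP1, a kinesin-1 cargo adaptor) by -0.64 (SE 0.17) and MAP7, which recruits kinesin-1 to microtubules, by -0.32 (SE 0.09) (edgeR adjusted p 0.0408, 0.036 and 0.0472). With the upper-quartile, median-of-ratios or total scaling only 2 of the 23 were called. The kinesin light chains KLC1, KLC2, KLC3 and KLC4 and the kinesin-2 subunit KIFAP3 were not called, with log2 changes from -0.23 to 0.24.

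Some kinesins also differed between replicates. Averaged over both groups, replicates 1 and 2 exceeded replicates 3 and 4 by a log2 of 0.84 for KIF26A and 0.69 for KIF5C. The excess was 0.67 for KIF18B, 0.55 for KIF7, 0.48 for KIF1A and 0.45 for KIFC1. This division was known from earlier results of these data, and no label names it. Within each group, replicates 1 and 2 both lay above replicates 3 and 4 for KIF26A, KIF5C, KIF18B and KIFC1. For KIF7 and KIF1A this held in NPY1R low only, since NPY1R high replicate 4 lay above NPY1R high replicate 2. For KIF11, KIF15 and KIF14 the difference averaged over both groups was 0.04, -0.0017 and 0.08. Transcript GC content moved with it: Pearson's r was 0.62 and Spearman's rho 0.58 across the 35 tested kinesins, which share libraries and so are not independent. Of the 11 with GC content above 55%, 10 were higher in replicates 1 and 2. KIF18B (58.4% GC), KIF22 (58.9%) and KIFC1 (57.9%) are the most GC-rich of the mitotic kinesins and the ones whose ranges overlapped, apart from KIF4B.

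Within replicates 1 and 2 alone the change of KIF22 was -0.36 and within replicates 3 and 4 -0.36; for KIFC1 these were -0.56 and -0.79, and for KIF18B -0.41 and -0.59. All 13 tested mitotic kinesins were negative in both subsets. With a term for the subsets KIF22 was called (edgeR adjusted p 0.0016) and KIFC1 reached 0.000455, and after removal of each library's trend on GC content KIF22 reached 0.00384. KIF18B was not called with either change alone (edgeR adjusted p 0.0559 and 0.124), and was called with both together (0.0124) or with a replicate block after that removal (0.0213). Calls over all genes rose as well, from 1904 in the main fit to 2886 with the term, 2987 with the GC removal and 4178 with both. The subsets were known from these data before the term was fitted, so its p-values add no support for KIF22, KIFC1 or KIF18B. KIF11 changed by -0.39 in replicates 1 and 2 and -0.77 in replicates 3 and 4, and KIF4A by -0.995 and -1.31. Whether the subsets differ in their change was not tested.

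**Figure D5:**
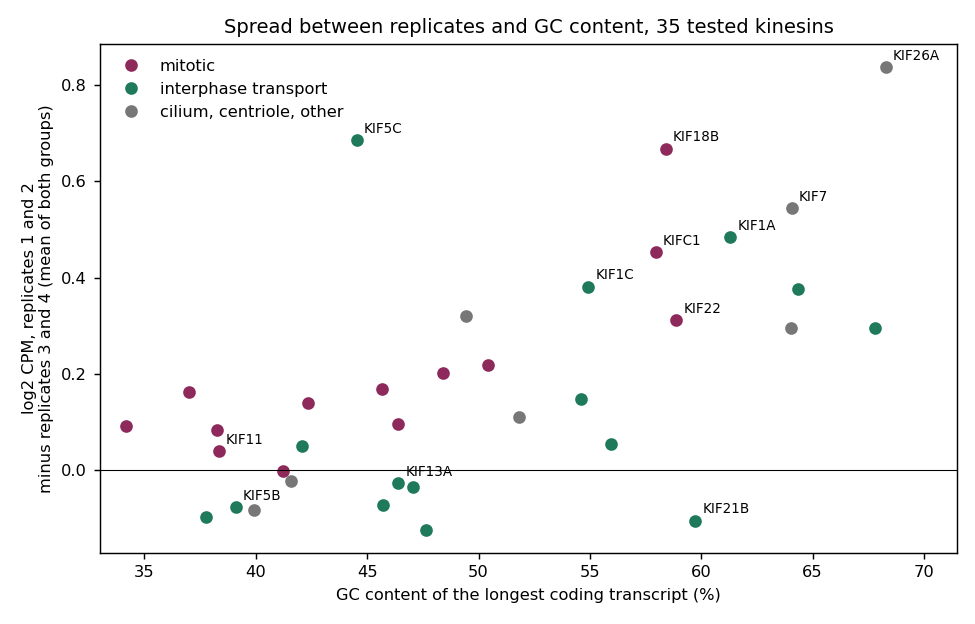
Log2 CPM in replicates 1 and 2 minus replicates 3 and 4, averaged over both groups, against the GC content (%) of the longest coding transcript, for the 35 tested kinesins coloured by role. Points rise with GC content (Pearson's r 0.62), with KIF5C above and KIF21B below the others of like GC content.

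Exon overlaps limit some values, since the strand setting of the counting is not given in the sources used here. In GENCODE release 29, exons overlap those of a gene on the opposite strand by 61 bases in KIF18A (METTL15), 77 in KIF4A (PDZD11) and 132 or fewer in KIF20A (BRD8 and CDC23), little beside transcripts of several kilobases. The overlap is larger in KIF7 (589 bases, TICRR), KIFC2 (791, FOXH1) and KIF9 (870 or fewer, KLHL18 and KIF9-AS1), and KIF2A shares 428 bases with IPO11 on the same strand.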

How the data were processed

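RNA was sequenced from 8 BT474 libraries, 4 NPY1R high and 4 NPY1R low, prepared with a strand-marking kit from 200 ng of input per the labels' protocols. The authors deposited expected counts for each symbol, without scaling across libraries. The submitters' processing notes name STAR 2.5.2, RSEM 1.3.0 and the build hg38. The annotation and strand setting are not given in the sources used here. The single-sample tables held the same values, with 0 differing. Columns of unmatched samples numbered 0.

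Expected counts were rounded to whole numbers. Genes were filtered with edgeR's filterByExpr (minimum count 10), leaving 14008 of 26475 genes and 35 of 42 kinesins, and scaled by TMM. The 2 groups were compared with the quasi-likelihood test of edgeR and no covariate, adjusted by Benjamini-Hochberg over all tested genes at 0.05. The software was edgeR 4.0.16 under R 4.3.3, with DESeq2 1.42.0 and limma 3.58.1 for alternatives. The procedure was run on simulated counts drawn independently for each library, which hold none of the replicate or GC structure described above. Log2 CPM used a prior count of 2. The counts carry no molecular identifiers and are not independent molecules. Depth (18025648 to 30609791 counts) covers counting error only.

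Every tested member is named, members that passed and those of the within-family pairs with their value in every library. From the partner and adaptor lists, those past the threshold with the 4 largest absolute changes are named, with CENPE and MKI67. NUMA1 and the light chains were named after their values were seen. Members, lists, pairs and motifs were chosen with earlier results of these data known. Gene positions and promoter sequences are from RefSeq (GRCh38.p14), transcript length, exon overlaps and GC content from GENCODE release 29 (97.1% of tested genes matched).

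Alternatives were other scalings, filters and tests, a replicate block, a GC offset (each library's trend on GC content removed by a spline with 5 degrees of freedom), a subset term (replicates 1 and 2 against the other two), and leaving out each library. The subset term rests on a division known from earlier results of these data. That term with the GC offset, and other partners for the within-family pairs, were added after seeing the data.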

Additional observations from a re-analysis of the deposited data

Results flagged for a closer look

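In 70 groups of 4 libraries, 1 for each of the 35 tested kinesins in either group, no library lay far enough from the others to pass Dixon's criterion (0 groups, where chance would give about 3.5).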

How the results depend on the processing

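Of 1276 values recomputed for 62 results, 1129 held in direction and in call (or stayed within the replicate spread or 1.5 times the count), 68 lost the call or count, 43 gained it, 19 changed sign and 17 moved. The mitotic count ranged from 9 to 12, and 9 of its 10 calls held in all 21 alternative fits, KIFC1 being the exception. Transport kinesins called lower numbered 3 with median-of-ratios, upper-quartile or total scaling, TMM against NPY1R high replicate 1, no filter or a filter of 1 CPM, and 3 to 4 without 1 library. Adaptors called numbered 2 under those 6 settings and limma-voom, and 1 to 4 without 1 library. Transport kinesins called higher numbered 2 with the GC offset, 3 with block and GC offset and 2 with the replicate-subset term and GC offset. Other kinesins called numbered 1 with DESeq2, 1 with the GC offset, 2 with block and GC offset, 2 with the subset term, 2 with that term and GC offset, and 0 to 1 without 1 library. Calls over all genes were 2987 (1816 lower) with the GC offset, 3357 (2007 lower, 1350 higher) with block and GC offset, 2886 (1681 lower) with the subset term and 4178 (2496 lower, 1682 higher) with that term and GC offset, which was chosen after seeing the data. Genes called lower numbered 625 to 1064 without 1 library. KIF26A turned positive with upper-quartile scaling (0.0265), library totals (0.02), TMM against NPY1R high replicate 1 (0.0053), no filter (0.012), 1 CPM (0.014) and DESeq2 (0.00071). Without 1 library its change ranged from -0.28 to 0.25, that of KIF1A from -0.29 to 0.0243, KIF1C from -0.12 to 0.0587, KIF5C from -0.44 to 0.0706, KIF21A from -0.10 to 0.0090 and KIF9 from -0.20 to 0.0798. None of these was called, and the causes were not tested. With KIF21B in place of KIF21A, a partner chosen after seeing the data, the kinesin-4 difference turned to 0.70.

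The labels name no batch, so the main fit did not pair libraries by number. Deviations of same-numbered libraries of the 2 groups correlated at 0.34, 0.16, 0.091 and 0.018, all positive. With a replicate block 805 genes were higher and 1028 lower, 11 mitotic kinesins were lower (KIF22 added) and KIF5B was not called (edgeR adjusted p 0.0869). For within-family differences the block and subset terms were not run, since permutations within them cannot reach the threshold. Depth limits KIF21B, KIF4B, KIF5C, KIF12 and the 7 untested members.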
